A study of Populus tremula x Populus alba with 6 samples.

Results

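The poplar DDM1 genes are the loci Potri.007G026700 on chromosome 7 and Potri.019G129900 on chromosome 19, which are 2 of the 32049 genes listed in every library. They were chosen as the Populus trichocarpa loci of DDM1, by a rule that uses no measured value but was set with earlier results of these data known. The files pair no identifier with a gene name, so the name DDM1 comes with the choice of these loci and was not tested on sequence, and no sequence of either gene was used here. The chromosomes are read from the identifiers, in which poplar locus names carry the chromosome number. Both genes had counts in all 6 libraries, and both passed the filter on low counts, which left 24991 genes for testing.

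DDM1 (DECREASE IN DNA METHYLATION 1) is a chromatin remodeller of the SNF2 family, an ATP-driven enzyme that moves nucleosomes. In Arabidopsis it opens chromatin that is packed with linker histone to DNA methyltransferases, and its loss lowers DNA methylation chiefly in transposons. Poplar carries a pair of such genes, so an RNAi construct against DDM1 may reach one or both transcripts.

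RNA was taken from the shoot apex, the growing tip with the shoot meristem and its youngest leaves, of plants of the hybrid Populus tremula x Populus alba, clone 717-1B4. The CTRL group held 3 wild-type plants of this clone, and the RNAi group held 3 plants of it with a knock-down construct against the DDM1 gene. All 6 were water-stressed for 3 weeks and watered again for 1 week, at 21 °C and 16 h of light, and were harvested 115 days after planting. The sources used here do not give the promoter of the construct, the stretch of DDM1 it matches or how many transformed lines the RNAi plants represent, so an effect of the construct and an effect of a line cannot be told apart. A lower level per cell and fewer cells that express a gene cannot be told apart in whole apices either.

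Counts assigned to genes on the sense strand ranged from 12399644 in CTRL 1 to 17165295 in RNAi 3. Levels are given as CPM, counts relative to the library size after trimmed-mean (TMM) scaling, and intervals on a single library's level or share are exact 95% intervals that cover counting error only. RNAi 2 stood apart from the other libraries on the first principal component of all tested genes. Its score was 63.75, and the others lay between -34.15 (CTRL 3) and 8.88 (RNAi 3). The fitted values of each DDM1 gene and of their sum are also given without RNAi 2. The labelled tissue was not checked against marker genes, because no gene names were available for them.

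Potri.007G026700, which had more counts than its partner in every library, was lower in all 3 RNAi apices than in all 3 CTRL apices. It had 246, 427 and 409 sense counts in CTRL 1, 2 and 3 and 236, 236 and 273 in RNAi 1, 2 and 3. These correspond to 21.3, 29.4 and 25.2 CPM in CTRL and to 17.1, 15.1 and 15.7 CPM in RNAi. The groups did not overlap, and the closest pair was CTRL 1, the lowest control, and RNAi 1, the highest RNAi plant. The counting intervals of this pair did overlap, from 18.7 to 24.1 CPM in CTRL 1 and from 15.0 to 19.4 CPM in RNAi 1.

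The level of Potri.007G026700 averaged 25.3 ± 4.04 CPM over the CTRL plants and 16.0 ± 0.99 CPM over the RNAi plants (SD, n = 3 each), 63.2% of the wild-type mean. Taken plant by plant, RNAi 1, 2 and 3 had 67.5%, 59.8% and 62.3% of the CTRL mean. The fitted log2 fold change was -0.66 ± 0.15 (SE), with a 95% interval from -1.01 to -0.32, which corresponds to 49.6% to 80.4% of the wild-type level. Levels at or above the wild-type level, or under 49.6% of it, thus lay outside this interval. The unadjusted p was 0.0022 in edgeR's quasi-likelihood test, the 58th lowest of all tested genes and the 29th lowest among those with a lower fitted level in RNAi. After Benjamini-Hochberg adjustment over 24991 genes the p was 0.80 in this test, and the gene was not called changed. Without RNAi 2 the log2 fold change was -0.63 ± 0.16 (SE, adjusted p = 0.95 in edgeR).

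The share of genes past the same marks gives the background for this gene. After adjustment, 1 gene passed in either direction, or 0.004% of those tested, and none was called lower. At an unadjusted p under 0.05, 641 genes (2.56%) were lower in RNAi, and DESeq2 called 19 genes lower after adjustment, 0.0638% of the 29796 genes to which it gave an adjusted p, without either DDM1 gene. All RNAi values lay below all CTRL values in 1519 genes (6.08%), Potri.007G026700 among them. A fitted log2 fold change as low as that of Potri.007G026700 or lower was found in 565 genes, 2.26% of those tested.

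**Figure D1:**
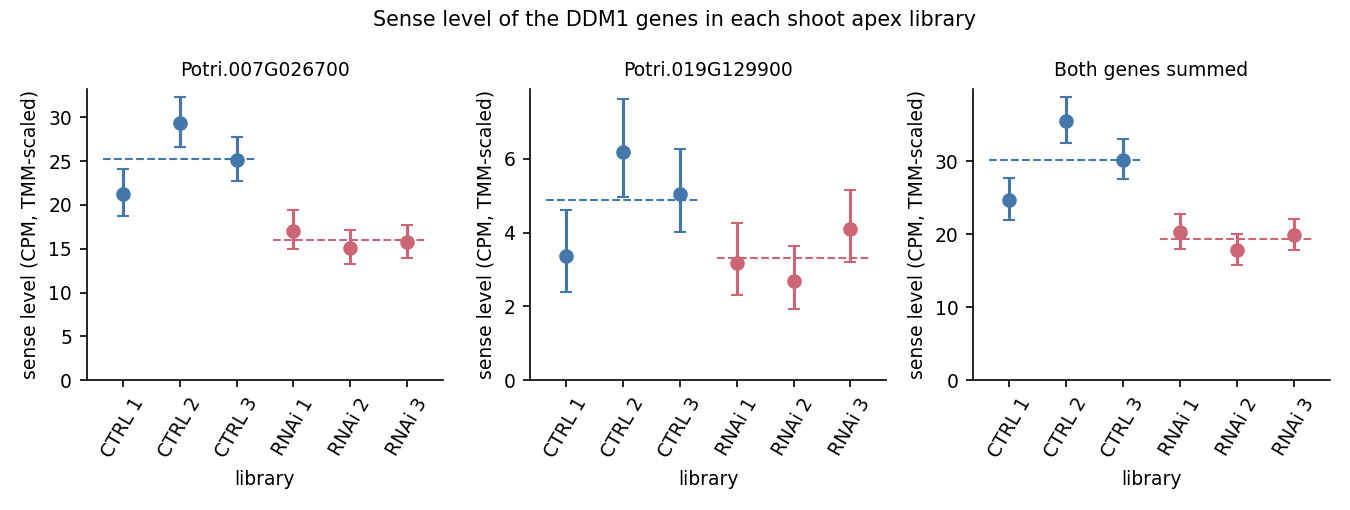
Sense level of Potri.007G026700, of Potri.019G129900 and of both summed in each library, in CPM, with exact 95% counting intervals as bars and group means as dashed lines. The 3 RNAi libraries lie below the 3 CTRL libraries for Potri.007G026700 (at most 17.1 against at least 21.3 CPM) and for the sum, while the groups overlap for Potri.019G129900.

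The coefficient of variation of Potri.007G026700 was 16.0% between CTRL plants, where counting alone gives between 4.84% and 6.38% in a library. Between RNAi plants it was 6.20%, and counting alone gives between 6.05% and 6.51% there. The RNAi plants thus had nearly the same level within the precision of the counts. A difference in spread between groups of 3 was not tested.

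The second DDM1 gene, Potri.019G129900, had few counts, and its groups overlapped. It had 39, 90 and 82 sense counts in CTRL 1, 2 and 3 and 44, 42 and 71 in RNAi 1, 2 and 3. The levels were 3.38, 6.19 and 5.04 CPM in CTRL and 3.18, 2.69 and 4.09 CPM in RNAi. RNAi 3 lay above CTRL 1, and in the other 8 of the 9 pairs of an RNAi and a CTRL plant the RNAi plant was lower.

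The level of Potri.019G129900 averaged 4.87 ± 1.41 CPM over the CTRL plants and 3.32 ± 0.71 CPM over the RNAi plants (SD, n = 3 each), 68.2% of the wild-type mean. The fitted log2 fold change was -0.55 ± 0.29 (SE), with a 95% interval from -1.22 to 0.11 that reaches from 42.9% to 108% of the wild-type level. The gene was not called by edgeR's quasi-likelihood test, with a p of 0.092 before adjustment and of 0.80 after it. Without RNAi 2 its log2 fold change was -0.42 ± 0.31 (SE, adjusted p = 0.95 in edgeR). The coefficient of variation was 29.1% in CTRL and 21.4% in RNAi, where counting alone gives between 10.5% and 16.0% and between 11.9% and 15.4% in a library. At this depth neither the full wild-type level nor 50% of it lay outside the interval of this gene.

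**Figure D2:**
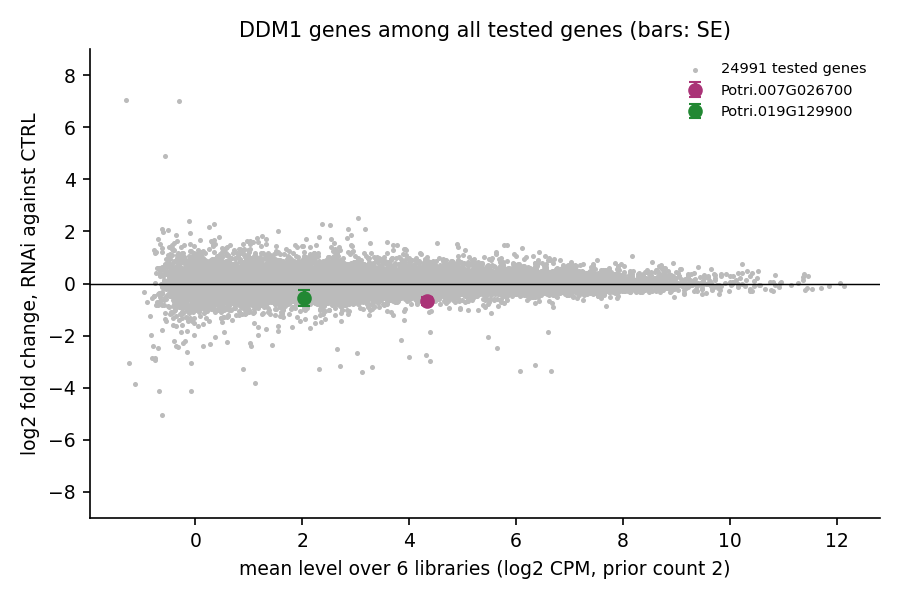
Fitted log2 fold change (RNAi against CTRL) against mean level (log2 CPM with a prior count of 2) for all 24991 tested genes in grey, with Potri.007G026700 and Potri.019G129900 in colour and their SE as bars. Both genes lie in the lower part of the main cloud, at -0.66 and -0.55, and not among the genes with the largest fitted differences.

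Summed over both genes, DDM1 counts were 285, 517 and 491 in CTRL 1, 2 and 3 and 280, 278 and 344 in RNAi 1, 2 and 3. The sum came to 24.7, 35.5 and 30.2 CPM in CTRL and to 20.2, 17.8 and 19.8 CPM in RNAi, with no overlap between the groups. All RNAi values lay below all CTRL values in 6.08% of the tested genes. Potri.007G026700 held between 79.4% and 86.3% of the summed counts, so the sum largely repeats the values of that gene. The CTRL plants averaged 30.1 ± 5.44 CPM and the RNAi plants 19.3 ± 1.30 CPM (SD, n = 3 each), 64.0% of the wild-type level. The difference in mean log2 CPM was -0.63, with an exact two-sided permutation p of 0.10, the smallest that 3 against 3 plants allow. Without RNAi 2 the difference was -0.57 (exact permutation p = 0.20). The exact permutation p was also 0.20 without RNAi 1 or RNAi 3, and 0.10 without any 1 CTRL plant. Tests with a library left out have fewer arrangements, so their p is not to be set against that of all 6 libraries. Fitted as 1 feature in place of the 2 genes, an analysis chosen after seeing the data, the sum had a log2 fold change of -0.64 ± 0.16 (SE) with a 95% interval from -1.01 to -0.28. By edgeR's quasi-likelihood test its p was 0.0033 before adjustment and 0.80 after it.

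The proportion of the counts that fell to each gene did not differ detectably between the groups. Potri.007G026700 held 86.3%, 82.6% and 83.3% of the summed counts in CTRL 1, 2 and 3 and 84.3%, 84.9% and 79.4% in RNAi 1, 2 and 3. The lowest share, in RNAi 3, had an exact binomial interval from 74.7% to 83.5%, and the highest, in CTRL 1, one from 81.8% to 90.1%. The mean share was 84.1 ± 1.98% over the CTRL plants and 82.8 ± 3.03% over the RNAi plants (SD, n = 3 each). The exact two-sided permutation p for it was 0.70. This proportion needs no scaling between libraries, but it is one of counts and not of transcripts, since no gene lengths were available.

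The same question put as a difference between the fold changes of both genes gave a mean log2 count ratio (Potri.007G026700 over Potri.019G129900) of 2.40 ± 0.21 over the CTRL plants and 2.27 ± 0.29 over the RNAi plants (SD, n = 3 each). The difference was -0.12, with an exact two-sided permutation p of 0.70. From the pooled counts, 745 and 157 in RNAi and 1082 and 211 in CTRL, the log2 ratio of both fold changes was -0.11 with an exact 95% interval from -0.45 to 0.23 for counting error only. The lower fitted level of the first gene with its narrower error and that of the second with its wider error are therefore not shown to differ in size. Without RNAi 3 the difference turned to 0.045 on the log2 scale.

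**Figure D3:**
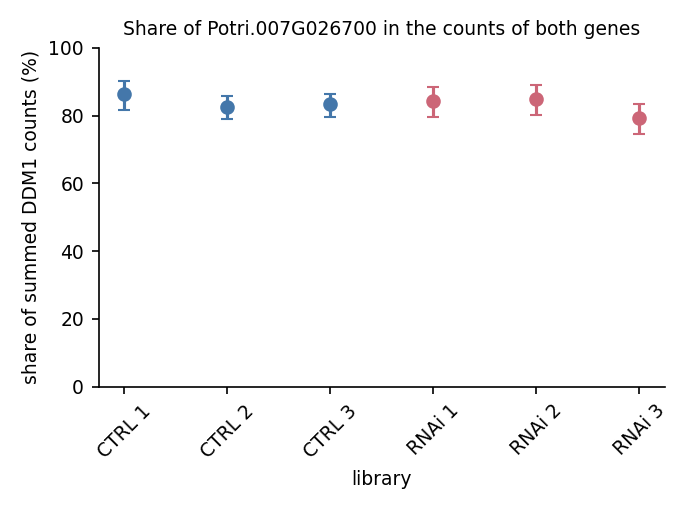
Share of Potri.007G026700 in the summed sense counts of both DDM1 genes in each library, in percent, with exact 95% binomial intervals as bars. The shares lie between 79.4% and 86.3%, and the CTRL and RNAi libraries overlap.

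The strand opposite to the DDM1 genes was almost without reads. An RNAi construct is commonly transcribed as an inverted repeat of the target, so its own reads can match either strand, while those of the gene's own messenger RNA fall on the sense strand. Potri.007G026700 had 1 opposite-strand count, in RNAi 2, and 0 in each of the other 5 libraries. Potri.019G129900 had 0 in all 6 libraries.

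Over all libraries the opposite strand thus held 1 of 2196 stranded counts of both genes, or 0.046% with an exact 95% interval from 0.0012% to 0.25%. Potri.007G026700 gave 1828 of these counts. For Potri.019G129900 alone, with 0 of 368, the interval reached up to 0.997%, and to between 4.02% and 9.03% in a single library. Over all genes the opposite strand held between 1.59% and 1.82% of the stranded counts of a library. Few or no opposite-strand reads were common among single genes: 21.3% of the tested genes had none in any library, and 34.9% had at most 1. As a rounded one-sided limit, and not the exact two-sided interval used for levels, a count of 0 allows up to 3 counts. This is between 0.173 and 0.260 CPM in a library. The exact two-sided permutation p for the opposite-strand CPM was 1, an outcome fixed in advance because only 1 library held a count. The test thus cannot compare the groups, and neither gene had enough such counts for a fit. Counts taken without regard to strand equalled the sum of both strands for both genes in every library, so that none of their reads was lost as ambiguous between strands.

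Both DDM1 genes deviated from the group mean in the same direction in each wild-type plant, though by little in CTRL 3. The deviations of a gene within a group add up to 0, so those of CTRL 1 and CTRL 2 are not independent. CTRL 1 lay below the CTRL mean by -0.23 for Potri.007G026700 and -0.48 for Potri.019G129900 on the scale of log2 CPM. CTRL 2 lay above it by 0.23 and 0.39, and CTRL 3 by 0.01 and 0.09. In RNAi the signs were the same in RNAi 2 (-0.08 and -0.28) and opposite in RNAi 1 (0.10 and -0.04) and RNAi 3 (-0.02 and 0.32). With 3 plants per group no correlation was computed within the groups.

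CTRL 1, the wild-type plant with the lowest level of both DDM1 genes, was also the library with the fewest counts. It lay lowest on the second principal component, with RNAi 1 next to it (scores of -44.2 and -19.0), and of all pairs of libraries CTRL 1 and RNAi 1 differed least over all genes (chi-square per degree of freedom of 7.96, against 14.05 to 39.1 for the other pairs). The part of this likeness in the DDM1 levels was not tested. Leaving out CTRL 1 gave larger fitted differences for both genes, and leaving out CTRL 2, the highest control, gave smaller ones. For Potri.007G026700 the log2 fold change was -0.76 ± 0.15 without CTRL 1 and -0.54 ± 0.16 without CTRL 2 (SE), with unadjusted p of 0.0012 and 0.011 and adjusted p of 0.53 and 0.83 in edgeR. For Potri.019G129900 it was -0.75 ± 0.27 without CTRL 1 and -0.35 ± 0.32 without CTRL 2, with unadjusted p of 0.026 and 0.31 and adjusted p of 0.62 and 0.85 in edgeR.

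**Figure D4:**
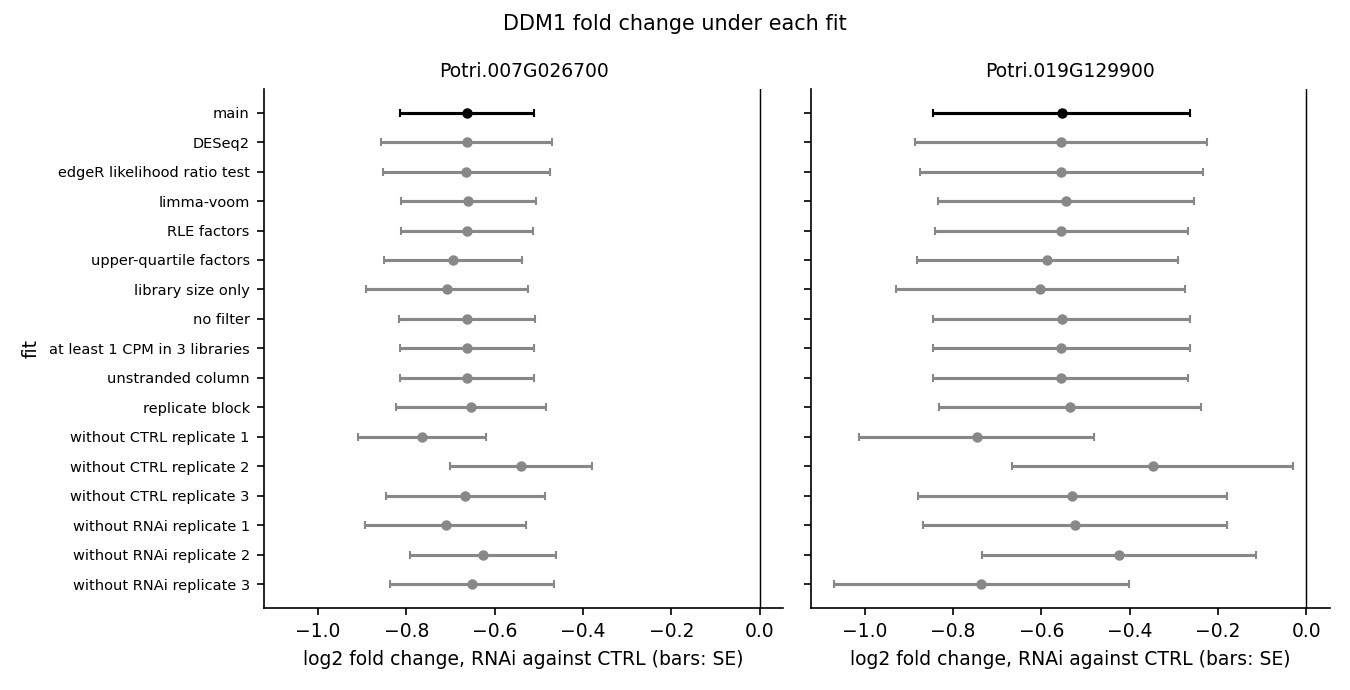
Log2 fold change of Potri.007G026700 and Potri.019G129900 (RNAi against CTRL) with its SE under the main edgeR fit in black and 16 alternatives in grey. All values lie below 0, between -0.76 and -0.54 for the first gene and between -0.75 and -0.35 for the second, and the extremes come from leaving out CTRL plants.

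The level of the genes listed next to the DDM1 loci overlapped between RNAi and CTRL. Of the 3 listed genes on either side of each locus in identifier order, 12 in all, 7 were tested. None of the 7 was called in edgeR's quasi-likelihood test, nor did any have an unadjusted p under 0.05. The log2 fold changes of the 7 had a median of 0.04, with 3 lower and 4 higher in RNAi. CTRL and RNAi values overlapped in all 7. Such outcomes were common among all tested genes, so they do not set the neighbours apart. Only 0.004% of all tested genes were called, and 2.56% passed the unadjusted mark with a reduced level. Complete separation of the groups, with RNAi below CTRL, was found in 6.08%. The shares of 2.56% and 6.08% count only genes lower in RNAi, while the outcomes of the neighbours were counted in either direction. Whether the neighbours differ from the DDM1 genes in fold change was not tested. The median over all tested genes was 0.00.

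The neighbour just before Potri.007G026700, Potri.007G026500, averaged 5.55 ± 1.06 CPM over the CTRL plants and 5.76 ± 0.70 CPM over the RNAi plants (SD, n = 3 each), a log2 fold change of 0.05 ± 0.22 (SE). The neighbour just after it, Potri.007G026800, averaged 89.0 ± 16.0 and 81.4 ± 35.1 CPM in the same order, a log2 fold change of -0.13 ± 0.29. Farther out, the log2 fold changes were -0.22 ± 0.27 for Potri.007G026300, 0.09 ± 0.15 for Potri.007G026400, 0.04 ± 0.17 for Potri.007G026900 and 0.67 ± 0.33 for Potri.007G027000. The last of these had the widest interval of these 6, from -0.08 to 1.42, and its groups overlapped.

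Potri.019G129900 lies in a stretch with little expression in the apex. Its preceding neighbours Potri.019G129500, Potri.019G129600 and Potri.019G129700, and Potri.019G130100 and Potri.019G130200 behind it, had at most 15 counts each over all 6 libraries and were not tested. Potri.019G130100 had no count in any library. The single tested neighbour, Potri.019G130000, had 231, 275 and 397 counts in CTRL 1, 2 and 3 and 294, 241 and 374 in RNAi 1, 2 and 3. Its log2 fold change was -0.12 ± 0.18 (SE), with a 95% interval from -0.52 to 0.28.

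**Figure D5:**
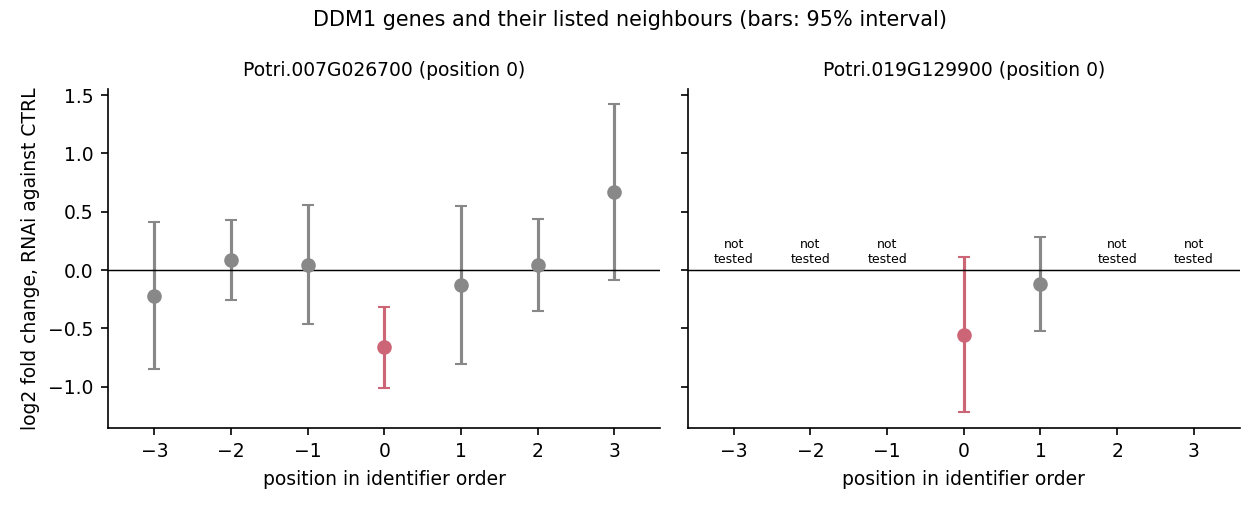
Log2 fold change (RNAi against CTRL) with 95% intervals for each DDM1 gene in red at position 0 and for the 3 listed genes on either side in grey, by position in identifier order. The intervals of Potri.019G129900 and of all 7 tested neighbours include 0. That of Potri.007G026700 does not, though its adjusted p was 0.80 in edgeR's quasi-likelihood test. A further 5 neighbours of Potri.019G129900 had too few counts to test.

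The 5 genes whose levels followed each DDM1 gene most closely over the 6 libraries are named here, and the lists shared no gene. Lists this short, taken from many genes with a high correlation over only 6 libraries, do not show that the DDM1 genes differ. Likeness was measured as the Pearson correlation of log2 CPM over the 6 libraries among 24097 other tested genes with a mean of at least 1 CPM, as a description only, since the libraries share the 2 groups and the difference between them. For Potri.007G026700 the 5 closest were Potri.011G128300, Potri.019G070800, Potri.001G093300, Potri.008G187200 and Potri.005G140000, with r between 0.987 and 0.994. For Potri.019G129900 they were Potri.005G170500, Potri.004G068500, Potri.003G165800, Potri.002G102700 and Potri.003G164000, with r between 0.991 and 0.995.

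Fitted levels of all 10 were lower in RNAi, as their choice by likeness favours, and none was called in edgeR. Log2 fold changes ranged from -0.66 to -0.26 for those like Potri.007G026700 and from -1.68 to -0.33 for those like Potri.019G129900. The largest was that of Potri.004G068500, which averaged 7.55 ± 6.31 CPM over the CTRL plants and 2.34 ± 1.69 CPM over the RNAi plants (SD, n = 3 each). At a looser limit, 251 genes (1.04%) had an r above 0.9 with Potri.007G026700 and 541 (2.25%) with Potri.019G129900. Between the DDM1 genes themselves r was 0.84, which placed Potri.019G129900 at rank 612 of the genes most like Potri.007G026700 and Potri.007G026700 at rank 1110 in the converse order.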

How the data were processed

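Raw read counts per gene were deposited by the authors, 1 file per library, each with an unstranded, a forward and a reverse column, per the file headers. The libraries were paired-end, polyA-selected and strand-specific (TruSeq stranded mRNA), per the labels' protocols. STAR is named in the submitters' processing notes. The sources used here give no version of it, genome build, annotation or filter. Sense counts were read from the reverse column and opposite-strand counts from the forward column. The 4 summary lines, which name no gene, held between 11.7% and 13.1% of a library's reads and were left out. Multimapping reads, which have a line of their own and could include reads matching both DDM1 genes, made up between 3.43% and 3.88%. No pair of libraries agreed within sampling noise, so all 6 were kept.

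RNAi was compared with CTRL over 24991 genes with edgeR 4.0.16 in R 4.3.3 (quasi-likelihood F test, robust, two-sided, TMM factors, filterByExpr, Benjamini-Hochberg adjustment, threshold 0.05), which was tested on simulated data. The differences planted in the simulated data were larger than those fitted for the DDM1 genes. Each SE was derived from the log2 fold change and the F statistic. Single values were compared by exact permutation tests over 20 arrangements, and 0.5 was added to counts in count ratios. Alternatives with a library left out or with the replicate block had fewer arrangements. Alternatives included limma-voom (limma 3.58.1), DESeq2 1.42.0 and the likelihood ratio test of edgeR, other factors and filters, the unstranded column, the replicate block and leaving out each library. Genes named are both members, the 3 listed genes on either side and the 5 most correlated with each (prior count 2). The members and rules were chosen with earlier results of these data known. Lists of the DNA methylation pathway, other remodellers, replication genes and tissue markers were not analysed here, for want of gene names. The labels call the plants biological replicates.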

Additional observations from a re-analysis of the deposited data

How the results depend on the processing

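The lower fitted level of both DDM1 genes in RNAi kept its direction in all 16 alternatives for each, and neither gene passed the adjusted threshold in any. Log2 fold changes ranged from -0.76 to -0.54 for Potri.007G026700 (adjusted p from 0.13, by edgeR's likelihood ratio test, to 0.9998; unadjusted p from 0.00048 to 0.011) and from -0.75 to -0.35 for Potri.019G129900 (adjusted p from 0.62 to 0.9998; unadjusted p from 0.026 to 0.31). With DESeq2 the adjusted p of Potri.007G026700 was 0.21. The summed level differed by between -0.77 and -0.50 (log2) in all 11 alternatives. Since the groups did not overlap for Potri.007G026700 or for the sum, leaving out 1 library could hardly turn their sign. Their unchanged direction is thus no support beyond that separation. When 1 library was left out, the group difference in the share of Potri.007G026700 went from -2.25 to 0.52 percentage points, and that between both fold changes from -0.22 to 0.045 (log2). Both turned sign without RNAi 3. The opposite-strand difference lay between 0 and 0.032 CPM with 1 library left out, and was 0 without RNAi 2, which held the only count.

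The number of genes called, 1 in the edgeR quasi-likelihood test, was 37 by DESeq2, 61 by edgeR's likelihood ratio test, 2 by limma-voom, and 0 with library size only, with at least 1 CPM in 3 libraries and with the replicate block. With 1 library left out it was between 0 and 7, the 7 without RNAi 1. The cause was not tested. Libraries with the same number (1, 2 and 3) had correlations of 0.237, -0.018 and -0.025 between their deviations from the group mean over all tested genes. By this measure CTRL 1 was closest to RNAi 1, CTRL 2 to RNAi 3 and CTRL 3 to RNAi 1. These values cannot decide whether equal numbers mark a pair, so the replicate block is not read as a paired analysis. With it the log2 fold changes were -0.65 and -0.54 (adjusted p = 0.77 and 0.79 in edgeR), and the summed level (-0.63, exact p = 0.25, the smallest 3 pairs allow), the share (-1.22 percentage points) and the difference of fold changes (-0.12) kept their values by construction. The summed fit and the alternatives for the difference of fold changes were chosen after seeing the data. Alternatives for the DNA methylation pathway were not run, for want of gene names.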
